A study of Rattus norvegicus with 54 samples.

Results

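Mitochondria make only a few of their own proteins and import the rest from the cytosol, and the genes described here serve this import, the folding of what arrives and the removal of what is damaged. The list holds 39 rat genes, 22 for translocases and their helpers, 6 for chaperones and 11 for processing peptidases and proteases. Of these, 34 had at least 1 probe set that the array annotation ties to that gene alone, among 14506 genes tested in all. They comprised 19 translocase, 5 chaperone and 10 protease genes, read by 40 probe sets. *Timm21*, *Timm50*, *Dnajc19*, *Grpel2* and *Clpp* had no such probe set and were not analysed here.

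A protein bound for the matrix meets receptors on the outer membrane, passes the pore of the TOM complex and then the channel of the TIM23 complex, where the matrix Hsp70 pulls it in. Peptidases cut off its targeting sequence, and the Hsp60 and Hsp10 chamber helps it to fold. Small Tim proteins of the intermembrane space escort carriers to the TIM22 complex, and the SAM complex inserts barrel-shaped proteins into the outer membrane. Proteases of the AAA family, Lon and ClpXP then remove misfolded or surplus subunits.

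The tissues were liver and the skeletal muscle of the hind limb, from Wistar rats, and their total RNA was read on GeneChip arrays. Liver was taken from foetuses at F16, F20 and F22, from pups at P1 and P4 and from adults at P90, with 4 arrays at each time point. Muscle was taken at F16, F18, F20, F22, P1 and P4, with 5 arrays at each. The foetuses were delivered by Caesarean section, the arrays of a group are called biological replicates in their labels, and shared litters are not stated. P-values therefore measure the spread between these samples alone. Values are log2 signals after robust multi-array averaging (RMA), so that a difference of 1 is a doubling of the signal. Levels are compared within a probe set and a tissue, since probe sets differ in brightness and the tissues were normalised apart. A gene with several probe sets is described by the brightest of them. RefSeq lists pseudogenes for *Tomm7*, *Tomm20*, *Tomm70*, *Timm8a1*, *Timm17a*, *Timm23*, *Hspa9*, *Hspd1*, *Hspe1*, *Pmpcb* and *Oma1*, and how far their probes read such copies is uncertain.

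The liver arrays had medians of 7.06 to 7.16 and the muscle arrays of 7.98 to 8.07. The tissues carried the markers of their labels, but some arrays also held signal of the other tissue. Hepatocyte markers had summed linear signals of 1143 to 8157 in F16 muscle and of 1325 to 9337 in P4 muscle. Muscle fibre markers had sums of 1011 to 6852 in F22 livers. How far this touched the members was not tested. The cell content of both tissues moved with age. In P4 livers 11 of 11 hepatocyte markers were higher than at F16, with a summed linear signal of 85429 to 95572 at P4, against 48363 to 50270 at F16. All 9 erythroid markers were lower there, with sums of 23911 to 27600 at P4, against 43819 to 45037 at F16, and all 11 markers of dividing cells were lower, with 7673 to 8787 at P4, against 21256 to 22532 at F16. Macrophage (11 of 11), granulocyte (8 of 8), endothelial (7 of 7) and adipocyte markers (4 of 6) were higher in P4 livers, and fibroblast markers (4 of 6) lower. In P4 muscle 10 of 10 muscle fibre markers were higher, with sums of 53544 to 59180 at P4, against 8943 to 14776 at F16. All 5 keratinocyte markers were higher too, with 21498 to 28940 at P4, against 2596 to 4790 at F16, as were 9 of 9 erythroid, 9 of 11 macrophage, 7 of 8 granulocyte, 6 of 7 endothelial, 6 of 6 adipocyte and 5 of 6 fibroblast markers. All 11 markers of dividing cells were lower there, with 12746 to 13563 at P4, against 20271 to 21503 at F16. The part of these shifts in the results below was not tested, and in such bulk tissue fewer cells of a type and less RNA per cell cannot be told apart.

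In the liver most members were lower at P4 than at F16. Between F16 and P4, 25 of the 34 members fell and 6 rose in limma at an adjusted p (Benjamini-Hochberg) no higher than 0.05. Of all genes tested 33.2% fell and 23.1% rose. The median change of the members was -0.40 on the log2 scale, beside -0.02 over all genes. The translocases held most of the falls, with 16 of 19 lower, 1 higher and a median of -0.46. Of the 5 chaperones 2 rose and 2 fell, and of the 10 proteases 3 rose and 7 fell. Without replicate 1 of P4, 3 members rose instead of 6, and *Grpel1*, *Timm10* and *Pmpcb* no longer passed. Over the 5 time points from F16 to P4, 31 of the 34 members differed in the F-test, as did 65.3% of all genes. The exceptions were *Pam16*, *Pmpcb* and *Trap1*.

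**Figure D1:**
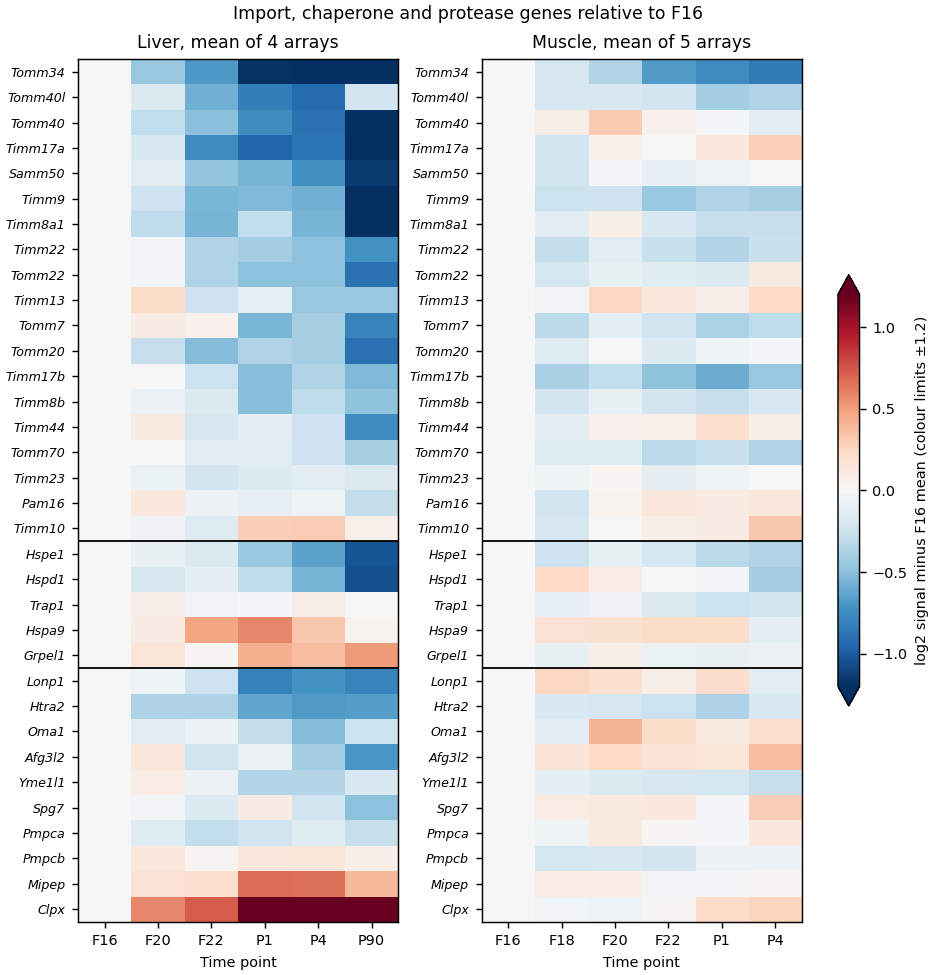
Mean log2 signal of each member minus its F16 mean, by time point, in liver (left, 4 arrays a time point) and muscle (right, 5 arrays). Translocases, chaperones and proteases are divided by black lines and ordered by the liver change between F16 and P4, colours end at 1.2 in either direction, and *Clpx* stands out in liver with a change of 1.92 at P4.

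The largest fall among the translocases was that of *Tomm34*, which encodes a cytosolic co-chaperone that binds Hsp70 and Hsp90 and takes part in delivering precursors. Its log2 signal was 7.71, 7.38, 7.68 and 7.63 in P4 livers, against 8.91, 8.98, 8.86 and 8.85 in F16 livers. The groups were more than 1 unit apart, and the change was -1.30 ± 0.07 (SE, adjusted p = 6.4e-12). The mean declined at each time point, with 8.90 at F16, 8.44 at F20, 8.20 at F22, 7.71 at P1, 7.60 at P4 and 7.38 at P90.

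The pore of the outer membrane followed. *Tomm40*, the channel itself, had 9.003, 8.94, 8.79 and 8.95 in P4 livers, against 9.73, 9.91, 9.89 and 9.71 in F16 livers, a change of -0.89 ± 0.08 (adjusted p = 7.2e-09). Its paralog *Tomm40l* had 6.89, 7.18, 7.23 and 7.26 in P4 livers, against 8.03, 8.17, 8.04 and 8.00 in F16 livers, a change of -0.92 ± 0.08 (adjusted p = 1.9e-09). In neither gene did the arrays of P4 and F16 overlap. The receptors fell less. *Tomm22*, the central receptor, changed by -0.49 ± 0.07, *Tomm20*, the receptor for targeting sequences, by -0.40 ± 0.07, and *Tomm70*, the receptor for carriers, by -0.25 ± 0.07. The small subunit *Tomm7* changed by -0.40 ± 0.10. *Samm50*, the core of the SAM complex, changed by -0.74 ± 0.08 (adjusted p = 1.7e-07).

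In the inner membrane, *Timm17a*, a subunit of the TIM23 channel, had 9.02, 8.82, 8.94 and 8.87 in P4 livers, against 9.89, 9.85, 9.77 and 9.65 in F16 livers. The change was -0.88 ± 0.06 (adjusted p = 1.6e-10), and most of it was present at F22, with a change of -0.75 ± 0.06 between F16 and F22. A second probe set of *Timm17a* gave -0.57. The other paralog, *Timm17b*, changed by -0.36 ± 0.07, and the channel subunit *Timm23* by -0.13 ± 0.06, which did not pass (adjusted p = 0.079). *Timm44*, which anchors the matrix Hsp70 at the channel, changed by -0.25 ± 0.07. *Pam16*, a regulator of that Hsp70, had -0.05 ± 0.07 (adjusted p = 0.63), while its second probe set had -0.24 and passed (adjusted p = 0.033). *Timm22*, the carrier translocase, changed by -0.49 ± 0.07.

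The small Tim proteins did not move as a block. *Timm9* changed by -0.57 ± 0.09 and *Timm10*, with which it forms a chaperone complex, by 0.31 ± 0.11 (adjusted p = 0.018). *Timm10* was thus the single translocase that rose. *Timm8a1* and *Timm13*, which form a like complex, changed by -0.56 ± 0.06 and -0.46 ± 0.08, and *Timm8b* by -0.30 ± 0.06.

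**Figure D2:**
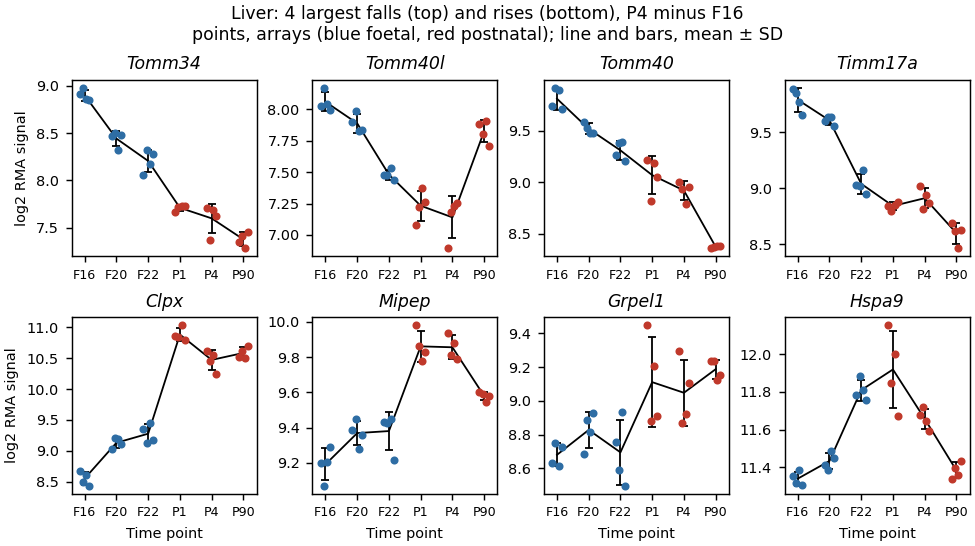
Log2 RMA signal in each liver array for the 4 members with the largest falls (top) and the 4 with the largest rises (bottom) between F16 and P4, with foetal arrays in blue, postnatal arrays in red and the mean ± SD of 4 arrays in black; each panel has its own vertical axis. *Clpx* reached 10.88 at P1, against 9.28 at F22, and *Tomm40l* was back at 7.83 at P90, against 7.14 at P4.

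The chaperones were divided. *Hspd1* and *Hspe1*, which encode Hsp60 and its lid Hsp10, changed by -0.56 ± 0.08 and -0.64 ± 0.06. *Hspa9*, the matrix Hsp70, had 11.68, 11.72, 11.64 and 11.59 in P4 livers, against 11.35, 11.31, 11.38 and 11.30 in F16 livers, a change of 0.32 ± 0.07 (adjusted p = 0.00094). Its peak was at P1, where the arrays spread from 11.67 to 12.15. *Grpel1*, which exchanges the nucleotide of this Hsp70, had 9.30, 8.87, 8.92 and 9.10 in P4 livers, against 8.63, 8.75, 8.61 and 8.72 in F16 livers. The change was 0.37 ± 0.12 (adjusted p = 0.012), and without replicate 1 of P4 it was 0.29 (adjusted p = 0.055). *Trap1*, the mitochondrial Hsp90, had 0.08 ± 0.07 (adjusted p = 0.39).

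*Hspd1* and *Hspe1* lie head to head on chromosome 9. The start sites used here are 290 bases apart in RefSeq (GRCr8), so that a single stretch of sequence precedes them both. The RefSeq bounds of the genes overlap, as *Hspd1* reaches 64084332 and *Hspe1* begins at 64084327. By those bounds the stretch lies inside *Hspd1*. The stretch is printed here because both genes fell in both tissues. It is given as the 250 bases before the start of *Hspe1* (chr9:64084077-64084326, plus strand), 5′ to 3′, with the matches to 3 motifs in capitals.
Hspe1: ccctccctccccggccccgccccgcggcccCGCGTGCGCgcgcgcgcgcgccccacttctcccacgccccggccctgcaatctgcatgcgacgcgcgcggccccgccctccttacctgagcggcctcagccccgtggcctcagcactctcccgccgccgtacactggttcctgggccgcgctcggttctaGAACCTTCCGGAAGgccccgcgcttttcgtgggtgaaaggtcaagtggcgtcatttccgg
The capitals are a match to NRF1 (GCGCANGCG), on the minus strand, and a run in which a heat shock element (GAANNTTC) overlaps a pair of ETS matches (CCGGAAG), one on each strand. Counted from the *Hspe1* start, the matches begin at -220, -60, -56 and -53.

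The proteases held the largest change of the list. *Clpx* encodes the unfoldase that feeds proteins to the ClpP peptidase and that also activates the first enzyme of haem synthesis. It had 8.67, 8.50, 8.60 and 8.43 at F16, 9.03, 9.20, 9.18 and 9.11 at F20 and 9.36, 9.12, 9.46 and 9.17 at F22. After birth it had 10.86, 10.85, 11.03 and 10.79 at P1, 10.62, 10.46, 10.56 and 10.25 at P4 and 10.53, 10.62, 10.50 and 10.70 at P90. All 12 postnatal arrays lay above all 12 foetal arrays. The change between F16 and P4 was 1.92 ± 0.09 (adjusted p = 3.7e-13), that across birth was 1.61 ± 0.09 (P1 minus F22, adjusted p = 8.5e-11), and between P1 and P4 it fell by 0.41 (adjusted p = 0.0055). Its partner *Clpp* was not analysed here.

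*Mipep*, which trims intermediates after the first cut, had 9.94, 9.81, 9.88 and 9.79 in P4 livers, against 9.20, 9.07, 9.21 and 9.29 in F16 livers, a change of 0.67 ± 0.07 (adjusted p = 3e-08). The subunits of the main processing peptidase moved little, *Pmpca* by -0.14 ± 0.05 and *Pmpcb* by 0.15 ± 0.06. The call for *Pmpca* was lost after a further quantile normalisation (-0.01) and that for *Pmpcb* under 8 of 20 alternatives, among them centring the arrays on their medians (0.10). *Lonp1*, the Lon protease of the matrix, changed by -0.72 ± 0.10, and *Htra2*, a serine protease of the intermembrane space, by -0.68 ± 0.07. *Oma1*, a stress-activated peptidase that cuts Opa1, changed by -0.52 ± 0.08. The AAA proteases fell less, with *Afg3l2* at -0.41 ± 0.06, its partner *Spg7* at -0.24 ± 0.07 and *Yme1l1*, the protease that faces the intermembrane space, at -0.35 ± 0.06.

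The liver changes fell into steps. Between F16 and F22, 20 members fell and 3 rose, where 29.6% and 17.8% of all genes did. Among the translocases 15 of 19 fell by F22. The 3 that rose were *Clpx* (0.73 ± 0.09), *Hspa9* (0.47 ± 0.07) and *Mipep* (0.19 ± 0.07). Across birth, between F22 and P1, 12 members fell and 7 rose, where 19.8% and 14.2% of all genes did. *Tomm7* (-0.59 ± 0.10), *Lonp1* (-0.57 ± 0.10) and *Tomm34* (-0.49 ± 0.07) led the falls. *Clpx*, *Mipep* (0.48 ± 0.07), *Timm10* (0.46 ± 0.11) and *Grpel1* (0.42 ± 0.12) led the rises. Of the 20 members that had fallen by F22, 9 fell again across birth and 2 rose, namely *Timm8a1* (0.26 ± 0.06) and *Afg3l2* (0.17 ± 0.06). For such repeated calls the shares over all genes were not computed. Between P1 and P4 there was less change, with 7 members lower and 1 higher, where 4.77% and 3.96% of all genes were. The single rise was that of *Timm8b* (0.21 ± 0.06, adjusted p = 0.044). It no longer passed with all probe sets of the table tested, after centring on array medians, where 7 members fell, or without any of P1 replicates 2 and 4 and P4 replicates 2, 3 and 4, and without P1 replicate 1 the count of rises was 3.

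Adult livers stood lower still. Between P4 and P90, 22 members fell and 3 rose, in a fit of all 6 liver groups, where 26% and 29.5% of all genes did. The median change of the members was -0.24, beside 0.07 over all genes. After a further quantile normalisation 14 members fell and 3 rose, and after centring on array medians 18 fell and 3 rose. Erythroid markers had sums of 1546 to 1709 at P90, against 23911 to 27600 at P4, and dividing-cell markers 1071 to 1202 at P90, against 7673 to 8787 at P4. Granulocyte markers had 866 to 925 at P90, against 12965 to 14016 at P4, with 7 of 8 lower. Their part in this comparison was not tested. The intermembrane space genes *Timm9* (-0.84 ± 0.10) and *Timm8a1* (-0.74 ± 0.05) fell most, followed by *Tomm40* (-0.55 ± 0.07), *Tomm20* (-0.50 ± 0.07), *Timm44* (-0.50 ± 0.07) and *Hspd1* (-0.49 ± 0.07). Of the 25 members that fell between F16 and P4, 18 fell again and 3 rose, and the shares over all genes were not computed. The rises were those of *Tomm40l* (0.69 ± 0.07, adjusted p = 3.4e-08), *Oma1* (0.26 ± 0.08) and *Yme1l1* (0.17 ± 0.06). The pore paralogs thus parted in the adult. *Tomm40* had 8.36, 8.37, 8.38 and 8.38 in P90 livers and *Tomm40l* had 7.88, 7.81, 7.90 and 7.71. All 4 *Tomm40* values were below, and all 4 *Tomm40l* values above, those of the P4 livers. *Clpx* did not pass (0.11 ± 0.08, adjusted p = 0.26) and remained above its foetal arrays.

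The 250 bases before the starts of these paralogs are shown because their signals fell together and then separated. They come from RefSeq (GRCr8, chr1:88498834-88499083 and chr13:86174122-86174371, both on the minus strand) and run 5′ to 3′, with motif matches in capitals.
Tomm40: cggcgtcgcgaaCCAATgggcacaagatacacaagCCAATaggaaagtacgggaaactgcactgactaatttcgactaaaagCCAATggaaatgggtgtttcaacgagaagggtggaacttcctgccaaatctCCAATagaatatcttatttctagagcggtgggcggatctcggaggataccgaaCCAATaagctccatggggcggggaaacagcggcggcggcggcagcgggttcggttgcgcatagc
Tomm40l: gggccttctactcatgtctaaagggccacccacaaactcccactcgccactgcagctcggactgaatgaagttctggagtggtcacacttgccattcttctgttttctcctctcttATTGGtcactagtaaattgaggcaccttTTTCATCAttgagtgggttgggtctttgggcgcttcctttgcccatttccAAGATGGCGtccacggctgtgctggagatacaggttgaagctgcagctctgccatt
In *Tomm40* the capitals are 5 matches to CCAAT. In *Tomm40l* they are, in this order, a CCAAT match on the minus strand, a match to the composite motif of ATF4 and C/EBP (TGATGNAA) on the minus strand and a match to YY1 (AAGATGGCG).

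In muscle the members changed in both directions. Between F16 and P4, 14 of the 34 fell and 8 rose, where 33.7% and 27% of all genes did, and the median was -0.09, beside -0.04 over all genes. After centring on array medians 18 fell and 6 rose. Of the 19 translocases 9 fell and 3 rose. Of the chaperones 3 of 5 fell, and of the 10 proteases 2 fell and 5 rose. Over F16, F20, F22, P1 and P4, 28 of 34 members differed in the F-test, as did 72.1% of all genes. Genes of mitochondrial content (citrate cycle, respiratory chain, porins and carriers) mostly rose in muscle, with 15 of 17 higher at P4 and a median of 0.34. In liver 4 of the 17 were higher and 7 lower, with a median of -0.08.

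**Figure D3:**
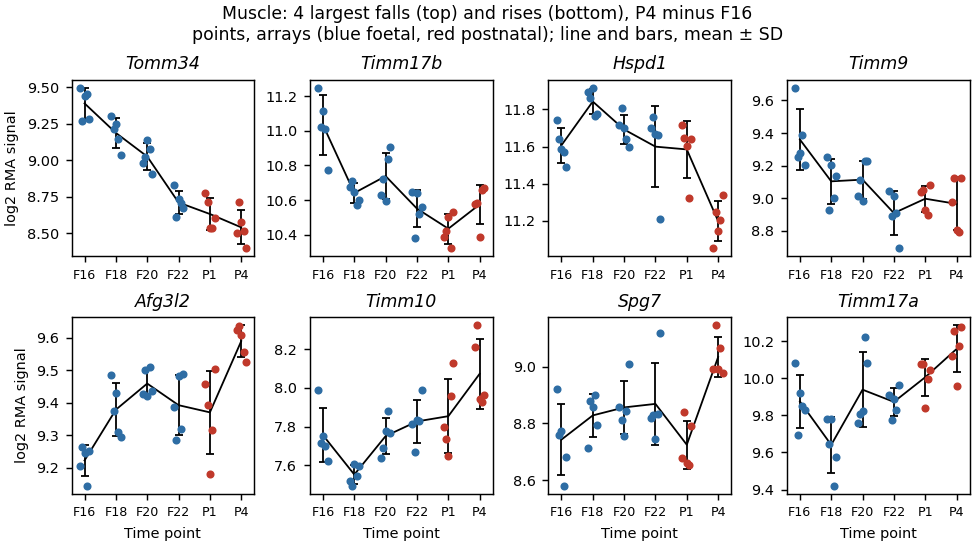
Log2 RMA signal in each muscle array for the 4 members with the largest falls (top) and the 4 with the largest rises (bottom) between F16 and P4, with foetal arrays in blue, postnatal arrays in red and the mean ± SD of 5 arrays in black; each panel has its own vertical axis. *Tomm34* declined through the series, while the rises stayed within 0.37 of the F16 mean at P4.

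*Tomm34* fell most in muscle as well. It had 8.50, 8.72, 8.57, 8.52 and 8.40 in P4 muscle, against 9.50, 9.27, 9.44, 9.46 and 9.29 in F16 muscle, a change of -0.85 ± 0.07 (adjusted p = 3e-11). *Timm17b* had 10.58, 10.59, 10.39, 10.66 and 10.67 in P4 muscle, against 11.25, 11.02, 11.11, 11.01 and 10.77 in F16 muscle, a change of -0.46 ± 0.08. *Hspd1* had 11.05, 11.25, 11.14, 11.21 and 11.34 in P4 muscle, against 11.74, 11.64, 11.59, 11.57 and 11.49 in F16 muscle, a change of -0.41 ± 0.09. In none of these 3 genes did the P4 and F16 arrays overlap. *Timm9* had 8.98, 9.12, 8.81, 8.79 and 9.12 in P4 muscle, against 9.68, 9.25, 9.28, 9.39 and 9.21 in F16 muscle, a change of -0.40 ± 0.09, again without overlap. The receptor *Tomm70* (-0.36 ± 0.06), the lid *Hspe1* (-0.36 ± 0.08), *Tomm40l* (-0.36 ± 0.07) and *Tomm7* (-0.31 ± 0.07) came next.

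The rises in muscle were led by the AAA protease of the inner membrane. *Afg3l2* had 9.62, 9.64, 9.61, 9.55 and 9.52 in P4 muscle, against 9.21, 9.26, 9.24, 9.14 and 9.25 in F16 muscle, a change of 0.37 ± 0.05 (adjusted p = 1.8e-06). Its partner *Spg7* had 8.99, 9.14, 8.99, 9.06 and 8.98 in P4 muscle, against 8.92, 8.76, 8.77, 8.58 and 8.68 in F16 muscle, a change of 0.29 ± 0.07 (adjusted p = 0.00065). Both sets of arrays were apart. *Timm10* had 8.21, 8.32, 7.94, 7.93 and 7.96 in P4 muscle, against 7.99, 7.71, 7.75, 7.70 and 7.62 in F16 muscle, a change of 0.32 ± 0.09 with 1 F16 array among the P4 arrays. *Timm17a* had 10.12, 10.26, 9.96, 10.18 and 10.28 in P4 muscle, against 10.08, 9.69, 9.92, 9.85 and 9.83 in F16 muscle, a change of 0.28 ± 0.08, and again 1 F16 array lay among those of P4. *Clpx* changed by 0.27 ± 0.05 (adjusted p = 4.3e-05), *Timm13* by 0.24 ± 0.08, *Oma1* by 0.21 ± 0.06 and *Pmpca* by 0.13 ± 0.04.

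Some of the muscle falls were present by F18, and others came later. The largest step between successive means was that to F18 in 10 of the 34 members. *Tomm34* took its largest step to F22 (-0.315) and *Hspd1* to P4 (-0.385). Between F16 and F18, in a fit of all 6 muscle groups, 16 members fell and 4 rose, where 19.1% and 14.5% of all genes did, and 12 of the 16 that fell were translocases. The count leaned on single arrays. Among the genes given array by array in muscle, replicate 1 of F16 was the highest F16 array for all but *Tomm40*, *Pmpca* and *Afg3l2*. Without it 6 members fell. Without replicate 2 of F18, 9 fell. After centring on array medians 21 fell and 1 rose. The 4 rises were those of *Lonp1* (0.24 ± 0.06), *Hspd1* (0.23 ± 0.08), *Hspa9* (0.17 ± 0.05) and *Afg3l2* (0.16 ± 0.05). Without F16 replicate 4, F18 replicate 1 or F18 replicate 3, 2 members rose. Between F16 and F22, 15 members fell and 3 rose, where 33% and 22.2% of all genes did, and after a further quantile normalisation 12 fell and 6 rose. The rises were those of *Hspa9* (0.22 ± 0.06), *Oma1* (0.22 ± 0.06) and *Afg3l2* (0.17 ± 0.05).

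Birth moved few members in muscle. Between F22 and P1, *Clpx* (0.21 ± 0.05, adjusted p = 0.0042) and *Pmpcb* (0.16 ± 0.05, adjusted p = 0.022) rose, where 8.92% of all genes did, and without P1 replicate 5 the count of rises was 1 and without P1 replicate 3 it was 3. In limma 0 members fell, where 7.98% of all genes did. At an unadjusted p of at most 0.05, 4 fell and 4 rose, and with array weights 3 fell. The count of falls was 1 in each of 3 other alternatives. These were a further quantile normalisation, the brighter probe sets alone and leaving out P1 replicate 1. Between P1 and P4, 5 members rose and 3 fell, where 18.5% and 13.7% of all genes did. The rises were those of *Spg7* (0.31 ± 0.07), *Tomm22* (0.27 ± 0.09), *Afg3l2* (0.22 ± 0.05), *Htra2* (0.19 ± 0.04) and *Pmpca* (0.15 ± 0.04). The falls were those of the matrix chaperones *Hspd1* (-0.39 ± 0.09) and *Hspa9* (-0.33 ± 0.06) and of *Lonp1* (-0.35 ± 0.06).

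The liver change between F16 and P4 differed from the muscle change for 24 of the 34 members. It was lower in liver for 18, where 31.6% of all genes were, and higher in liver for 6, where 24.4% were. *Timm17a* showed the largest gap to the lower side, -1.16 ± 0.11 (adjusted p = 4.8e-12), with a liver change of -0.88 and a muscle change of 0.28. Its second probe set changed by -0.57 in liver and by 0.22 in muscle, so the size of this gap depends on the probe set. *Afg3l2* (-0.77 ± 0.08), *Tomm40* (-0.76 ± 0.10), *Samm50* (-0.75 ± 0.10), *Oma1* (-0.72 ± 0.10) and *Timm13* (-0.70 ± 0.12) followed. The higher side held *Clpx* (1.65 ± 0.10, adjusted p = 3.3e-18), *Mipep* (0.63 ± 0.09), *Grpel1* (0.44 ± 0.13), *Hspa9* (0.42 ± 0.09), *Trap1* (0.30 ± 0.08) and *Pmpcb* (0.22 ± 0.07). In 13 members the calls were falls in both tissues, and in 6 a fall in liver stood beside a rise in muscle, namely *Timm17a*, *Timm13*, *Afg3l2*, *Spg7*, *Oma1* and *Pmpca*. *Clpx* and *Timm10* rose in both. The shares of all genes with these pairs of calls were not computed, so the counts do not set the members apart. For *Tomm34* the fall was larger in liver (-0.45 ± 0.10, adjusted p = 0.00012). For *Timm10* the difference was -0.01 ± 0.14 and for *Timm17b* 0.10 ± 0.11, and neither passed. In liver and muscle alike the markers of dividing cells were lower at P4, while erythroid markers fell in liver and rose in muscle, and their part in this difference was not tested.

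**Figure D4:**
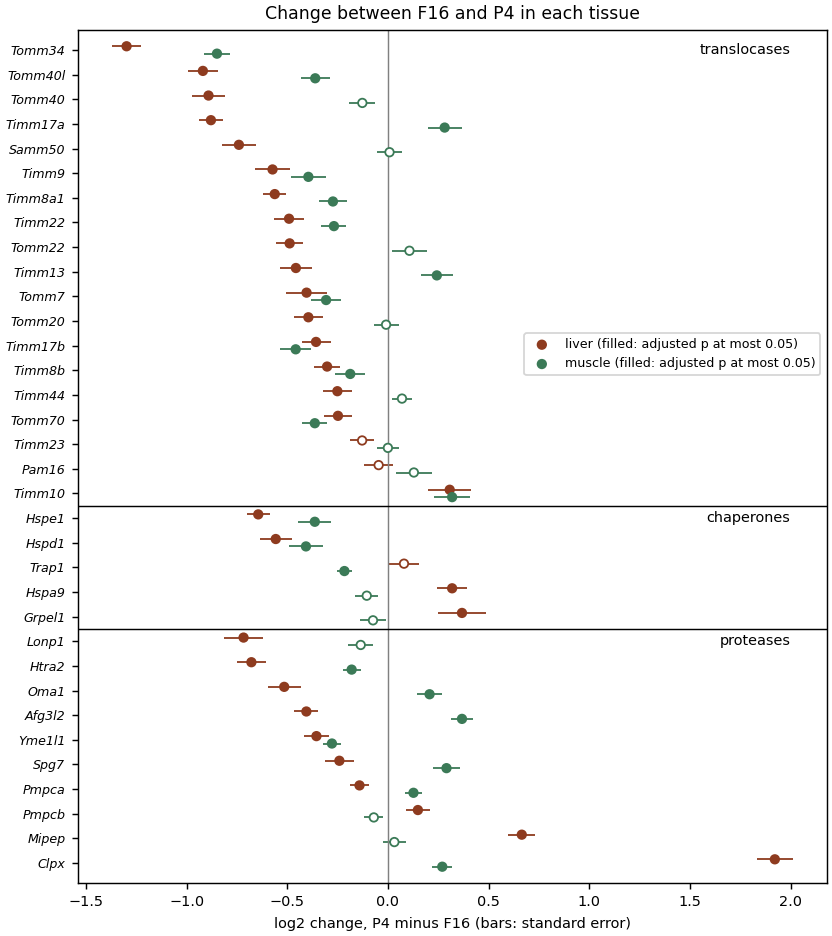
Log2 change (P4 minus F16) of each member in liver (brown) and muscle (green), with the standard error of the limma fit; filled points passed at an adjusted p of at most 0.05. *Timm17a*, *Afg3l2*, *Oma1*, *Spg7*, *Timm13* and *Pmpca* lie left of zero in liver and right of zero in muscle.

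Partners of a complex and paralogs were also compared within each array, as the difference of their log2 signals, which is free of a shift common to the array. Of 10 pairs listed, 8 could be measured, and 16 exact 2-sided permutation tests of P4 against F16 were adjusted together. In muscle 6 of 8 ratios shifted, each at the smallest p that 5 arrays against 5 allow (exact p = 0.0079, adjusted p = 0.021). Ratios of unrelated genes were not tested, and in muscle 33.7% of all genes fell and 27% rose between F16 and P4. The count therefore does not set partners apart from other pairs. In liver 4 arrays against 4 allow no p below 0.029, and the 3 ratios that reached it had an adjusted p of 0.051. *Timm9*/*Timm10* moved the same way in both tissues, by -0.88 in liver and by -0.71 in muscle. *Timm17a*/*Timm17b* moved by -0.52 in liver (exact p = 0.029) and by 0.74 in muscle, and *Pmpca*/*Pmpcb* by -0.29 in liver (exact p = 0.029) and 0.20 in muscle. For these 3 pairs the P4 and F16 arrays did not overlap in either tissue. A second probe set of *Timm17a* fell less in liver (-0.57, beside -0.88), so the liver shift of *Timm17a*/*Timm17b* is smaller with it. In muscle *Timm8a1*/*Timm13* moved by -0.52, *Tomm20*/*Tomm70* by 0.35 and *Tomm40*/*Tomm40l* by 0.23. The ratio *Hspd1*/*Hspe1* moved by 0.09 in liver (exact p = 0.49) and by -0.045 in muscle (exact p = 0.63). *Afg3l2*/*Spg7* moved by -0.16 in liver (exact p = 0.17) and by 0.08 in muscle (exact p = 0.26). Without replicate 2 of the F16 livers 10 of the 16 tests passed. Liver ratios tied at the smallest p that so few arrays allow pass or fail together, so this count moves in jumps. With P1 and P4 together against F16, F20 and F22, the *Timm9*/*Timm10* ratio moved by -0.66 in liver and by -0.33 in muscle (permutation, adjusted p = 0.00013 and 0.0096). Set up in that way, *Tomm40*/*Tomm40l* (0.05, adjusted p = 0.63) and *Pmpca*/*Pmpcb* (-0.06, adjusted p = 0.34) no longer passed in muscle. In liver 4 ratios passed in that comparison, *Timm9*/*Timm10*, *Timm17a*/*Timm17b* (-0.26, adjusted p = 0.029), *Afg3l2*/*Spg7* (-0.20, adjusted p = 0.018) and *Hspd1*/*Hspe1* (0.13, adjusted p = 0.05, permutation).

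The signals behind the other muscle ratios showed which partner moved. *Tomm20* had 10.32, 10.40, 10.25, 10.34 and 10.37 in P4 muscle, against 10.55, 10.18, 10.37, 10.35 and 10.27 in F16 muscle, with overlap. *Tomm70* had 9.71, 9.76, 9.53, 9.51 and 9.64 in P4 muscle, against 10.10, 9.90, 10.03, 10.03 and 9.92 in F16 muscle, without overlap. The ratio of these receptors thus moved with *Tomm70*. *Timm8a1* had 9.90, 9.95, 9.80, 9.90 and 9.94 in P4 muscle, against 10.42, 10.11, 10.24, 10.14 and 9.94 in F16 muscle. *Timm13* had 8.65, 8.83, 8.59, 8.66 and 8.58 in P4 muscle, against 8.54, 8.30, 8.49, 8.42 and 8.36 in F16 muscle. Here both partners moved, in opposite directions. *Tomm40* had 9.70, 9.80, 9.51, 9.75 and 9.80 in P4 muscle, against 9.95, 9.75, 9.98, 9.64 and 9.86 in F16 muscle. *Tomm40l* had 8.54, 8.55, 8.32, 8.56 and 8.46 in P4 muscle, against 9.05, 8.80, 8.84, 8.74 and 8.81 in F16 muscle. The arrays of *Tomm40* overlapped and those of its paralog did not. *Pmpca* had 10.33, 10.35, 10.19, 10.25 and 10.32 in P4 muscle, against 10.14, 10.20, 10.22, 10.16 and 10.07 in F16 muscle. *Pmpcb* had 10.88, 10.92, 10.81, 10.83 and 10.92 in P4 muscle, against 11.05, 10.88, 10.96, 10.99 and 10.84 in F16 muscle. Both sets of arrays overlapped, and *Pmpcb* did not pass on its own (-0.07 ± 0.05, adjusted p = 0.21).

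**Figure D5:**
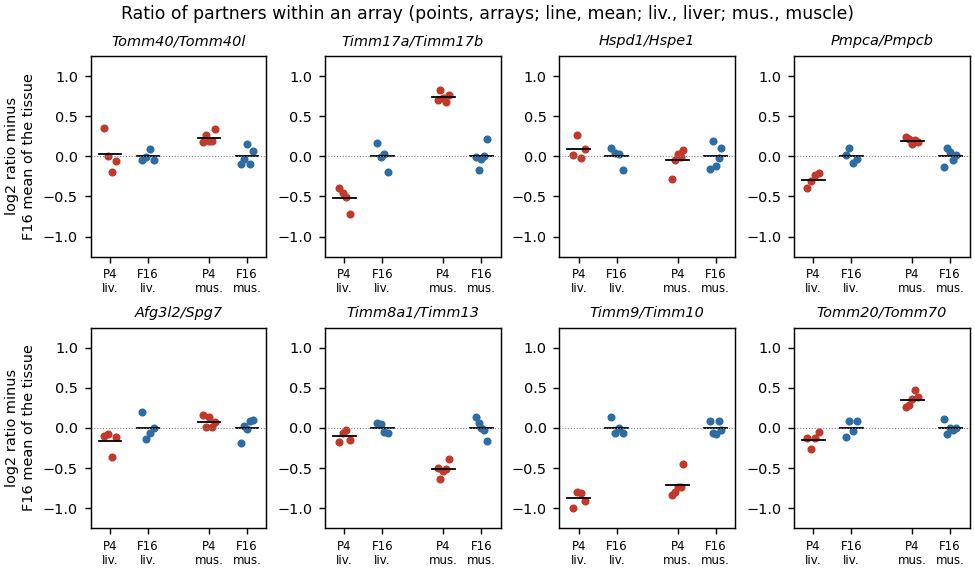
Difference of the log2 signals of 2 partners in each array, minus its F16 mean in that tissue, at P4 (red) and F16 (blue), in liver (4 arrays a group) and muscle (5 arrays a group), with the group mean as a line. The *Timm9*/*Timm10* ratio lies below its F16 arrays at P4 in both tissues, and *Timm17a*/*Timm17b* lies below them in liver and above them in muscle.

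The 250 bases before the start sites used for *Timm9* and *Timm10* are shown because these partners moved apart in both tissues. They come from RefSeq (GRCr8, chr6:95358896-95359145 on the minus strand and chr3:90314889-90315138 on the plus strand), 5′ to 3′.
Timm9: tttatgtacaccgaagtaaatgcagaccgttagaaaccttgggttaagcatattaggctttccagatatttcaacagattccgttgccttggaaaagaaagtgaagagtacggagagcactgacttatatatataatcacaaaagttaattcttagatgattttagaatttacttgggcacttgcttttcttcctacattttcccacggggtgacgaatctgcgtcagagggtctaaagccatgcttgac
Timm10: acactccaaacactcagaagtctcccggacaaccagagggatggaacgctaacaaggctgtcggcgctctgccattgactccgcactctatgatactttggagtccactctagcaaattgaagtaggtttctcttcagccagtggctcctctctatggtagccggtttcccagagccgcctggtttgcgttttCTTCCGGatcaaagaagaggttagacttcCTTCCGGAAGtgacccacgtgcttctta
The capitals in *Timm10* are 3 matches to the ETS motif CCGGAAG, 2 of them overlapping on opposite strands, and none of the motifs searched had these letters in the *Timm9* stretch. By its RefSeq bounds *Timm10* begins at 90315048, so the end of its stretch, with these matches, lies inside the gene.

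RefSeq promoters (250 bases before to 50 after the start) were found for 30 of the 34 members, and *Clpx*, *Htra2*, *Lonp1* and *Tomm34* are named only. On either strand, the ETS motif CCGGAAG was in 12 of the 30 (40%), beside 13% of the 11968 promoters of genes tested and 8.75% of all 33469 promoters. NRF1 (GCGCANGCG) was in 8 (26.7%, beside 9.8% and 5.8%). The heat shock element GAANNTTC was in 4 (13.3%, beside 6.59% and 8.59%), namely *Hspa9*, *Hspd1*, *Hspe1* and *Spg7*. CCAAT was in 11 (36.7%, beside 38.3% and 37.5%). The ATF4 and C/EBP motif TGATGNAA was in 3 (10%, beside 2.98% and 3.98%), namely *Hspa9*, *Timm22* and *Tomm40l*. The ERR motif CAAGGTCA was in 2, *Timm8b* and *Trap1* (6.67%, beside 1.01% and 1.52%). The YY1 motif AAGATGGCG was in 1, *Tomm40l* (3.33%, beside 2.63% and 1.73%). *Hspd1* and *Hspe1* share part of their stretch and so count the same sites. These are matches of letters and not sites shown to be bound.

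Other genes linked to these processes, 31 of which were measured, were read in the same fits. They include the transcription factors *Atf5* and *Ddit3*. Between F16 and P4, 21 fell and 3 rose in liver (median -0.30), where 33.2% and 23.1% of all genes did. In muscle 17 fell and 5 rose (median -0.19), where 33.7% and 27% of all genes did. *Chchd4*, which oxidises the small Tim proteins as they enter, changed by -0.87 ± 0.08 in liver (adjusted p = 4.3e-09) and by 0.13 ± 0.07 in muscle (adjusted p = 0.12), and the tissues differed by -0.999 ± 0.10 (adjusted p = 5.2e-11). *Timm10b*, a further small Tim protein, fell in both, by 0.50 in liver and 0.35 in muscle. *Stoml2*, a scaffold of the inner membrane, changed by -0.58 ± 0.07 in liver and -0.77 ± 0.08 in muscle. The rises in liver were *Atf5*, a transcription factor linked to the mitochondrial unfolded protein response (2.14 ± 0.17), *Lactb*, a filament-forming protein of the intermembrane space (1.18 ± 0.09), and *Ddit3* (0.30 ± 0.10). In muscle *Atf5* changed by 0.72 ± 0.07 and *Lactb* by 0.48 ± 0.09.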

How the data were processed

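RNA of 54 arrays (24 of liver, 30 of muscle) was analysed. The values that the authors deposited are log2 signals of probe sets after robust multi-array averaging, and the processing notes of the submitters name Affymetrix Expression Console. Its version is not given in the sources used. RMA compresses changes near background. Of 29214 probe sets, 15310 carry 1 symbol. Those with more symbols (323) or with none in the annotation used (13581) were left out.

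Groups came from the labels. Models were fitted within a tissue with limma 3.58.1 in R 4.3.3 (lmFit, eBayes) over the 5 time points of the study, over all 6 groups for P90 and F18 and over 45 arrays for the tissue difference. P-values were adjusted (Benjamini-Hochberg) over the 15310 probe sets, at a threshold of 0.05, and no probe set was filtered on low values. A gene was counted by its brightest probe set, on the mean of 45 arrays. The tests were checked on simulated data. Partner ratios were tested by exact permutation in Python 3.11.15. The 16 tests that could be made were adjusted together, and *Grpel1*/*Grpel2* and *Clpp*/*Clpx* were not run. Members, lists, motifs and tests were chosen with earlier results of these data known. Values in each array are given for the 4 highest and 4 lowest changes between F16 and P4 in a tissue among members past the threshold, and for partners whose ratio passed. The number of arrays per group, 4 or 5, limits the precision. Alternatives were another threshold, filter, prior, normalisation, weighting, block, probe set rule and leaving out each array. Those without the arrays least like their groups and with the dimmest probe set were chosen after seeing the data.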

Additional observations from a re-analysis of the deposited data

Results flagged for a closer look

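In 144 groups of arrays (a gene named by the rule at 1 time point of 1 tissue), 6 arrays stood apart from the others of their group by Dixon's criterion, where chance gives about 1 in 20 groups. In liver, F20 replicate 3 had 8.32 for *Tomm34*, with the others between 8.47 and 8.50, and F22 replicate 4 had 9.22 for *Mipep*, with the others between 9.43 and 9.45. In muscle, F22 replicate 5 stood apart for *Hspd1* (11.21, others 11.66 to 11.76) and for *Spg7* (9.12, others 8.74 to 8.83). Muscle P1 replicate 4 had 11.32 for *Hspd1*, with the others between 11.60 and 11.71, and F18 replicate 1 had 8.77 for *Tomm40l*, with the others between 8.59 and 8.63.

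The change between F16 and P4 differed between liver and muscle for 24 members in the limma fit of 45 arrays. The liver change minus the muscle change was below zero for *Afg3l2* (-0.77), *Hspe1* (-0.28), *Htra2* (-0.5), *Lonp1* (-0.58), *Oma1* (-0.72), *Pmpca* (-0.27), *Samm50* (-0.75), *Spg7* (-0.53), *Timm13* (-0.7), *Timm17a* (-1.16), *Timm22* (-0.22), *Timm44* (-0.32), *Timm8a1* (-0.29), *Tomm20* (-0.39), *Tomm22* (-0.59), *Tomm34* (-0.45), *Tomm40* (-0.76) and *Tomm40l* (-0.56). It was above zero for *Clpx* (1.65), *Grpel1* (0.44), *Hspa9* (0.42), *Mipep* (0.63), *Pmpcb* (0.22) and *Trap1* (0.3). The calls for *Timm22* and *Hspe1* were lost under 15 and 3 of 31 alternatives.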

How the results depend on the processing

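Of 8114 results for single genes, 7742 kept their side of the threshold under the alternatives, 226 lost the call and 146 gained one. Results that passed with or without the alternative kept their direction, and the direction of the rest was not compared. Of 565 counts, 538 stayed within 1.5 times their value and 27 did not, and the causes were not tested. At an unadjusted p of at most 0.05, 3 members rose in liver between P1 and P4 (1 after adjustment), and in muscle between F22 and P1, 4 rose and 4 fell (2 and 0 after adjustment). With all probe sets tested 0 rose in liver between P1 and P4, with array weights 3 fell in muscle between F22 and P1, and with brighter probe sets alone 1 did. After a further quantile normalisation 6 members rose in muscle between F16 and F22 (3), 1 fell between F22 and P1 and 14 fell in liver between P4 and P90 (22). After centring on array medians 0 rose in liver between P1 and P4 and 1 rose in muscle between F16 and F18 (4). Centring moved the median of all genes between P4 and P90 to 0.125, beside 0.072. Without the liver array least like its group, chosen after seeing the data, 3 rose between P1 and P4.

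With single arrays left out, 0 to 3 members rose in liver between P1 and P4, and 3 to 6 rose between F16 and P4. In muscle 6 to 21 fell and 2 to 4 rose between F16 and F18, 0 to 1 fell and 1 to 3 rose between F22 and P1, and 6 to 10 partner ratios passed. The replicate block left 25 members lower and 5 higher in liver at P4, and 14 lower and 8 higher in muscle. Same-numbered arrays did not deviate together (median r = -0.006 in liver and -0.008 in muscle), 10 of 24 liver arrays and 6 of 30 muscle arrays correlated best with their own number, and the numbers were not taken as pairs. Levels near background, and groups of 4 or 5 arrays, limit what small changes can show.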
